A study of Mus musculus with 8 samples.

Results

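Myogenic regulators and embryonic fibre genes are the genes that build skeletal muscle before birth and rebuild it after injury. The 10 examined here were Myod1, Myog, Myf5, Myf6, Pax7, Mymk, Chrng, Myh3, Myh8 and Myl4. They were chosen by name, with no measured value in the rule but with earlier results of these data known. Each was represented by 1 transcript cluster, the set of array probes summarised into 1 value, and all 10 were measured among 19938 genes. None of the 10 differed between wild type and a muscle-fibre knockout of the acetyltransferase Gcn5 by more than the spread between animals. The 95% intervals of the 10 lay between 0.803-fold and 1.37-fold of the wild-type signal. For Myog, Myf5, Chrng and Myh3 the signal was not separated from background, so the intervals do not bound their RNA levels.

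The samples were calf muscles (gastrocnemius, which mixes fast and slow fibres) from males aged 6 months, kept on chow and fasted for 5 h. In the knockout (Gcn5skm-/-), 4 mice carried both floxed alleles of the Gcn5 gene Kat2a (L2/L2) and 1 copy of an HSAcre transgene, in which the human skeletal actin promoter drives Cre in muscle fibres. The wild type (Gcn5skm+/+) was 4 mice with the same L2/L2 alleles and no Cre, so effects of Cre and of the deletion cannot be told apart. Satellite cells, nerve, vessels and other cells that do not express this Cre keep the gene.

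Muscle is made from precursors in which a family of basic helix-loop-helix (bHLH) transcription factors, Myf5, MyoD, myogenin and Mrf4, turns on muscle genes by binding short DNA motifs called E-boxes. In adult muscle the precursors rest as satellite cells marked by Pax7. When they are activated they express MyoD, then myogenin, and fuse through the membrane proteins myomaker and myomixer. The fusing cells then pass through a stage with embryonic and perinatal myosins and the fetal acetylcholine receptor. Adult fibres have largely switched to other isoforms, while Mrf4 stays on.

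Promoters of these genes were searched for motifs of myogenic factors. The stretches of 250 bases before the start of Myog, which had the widest difference of the 10 genes, and of Chrng, a well-known target of the bHLH factors, are shown 5′ to 3′. Capitals mark E-boxes (CANNTG, which reads the same on both strands) and the MEF3 motif TCAGGTTT, a site type of sine oculis homeobox factors, searched on both strands. Both stretches are on the plus strand of GRCm38.p6, at chr1:134289754-134290003 for Myog and chr1:87205561-87205810 for Chrng, and come from RefSeq.
Myog: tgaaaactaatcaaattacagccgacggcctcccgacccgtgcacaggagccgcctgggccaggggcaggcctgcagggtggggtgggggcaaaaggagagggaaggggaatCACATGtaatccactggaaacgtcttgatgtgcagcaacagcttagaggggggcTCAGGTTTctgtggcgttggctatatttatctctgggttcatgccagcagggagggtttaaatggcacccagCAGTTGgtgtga
Chrng: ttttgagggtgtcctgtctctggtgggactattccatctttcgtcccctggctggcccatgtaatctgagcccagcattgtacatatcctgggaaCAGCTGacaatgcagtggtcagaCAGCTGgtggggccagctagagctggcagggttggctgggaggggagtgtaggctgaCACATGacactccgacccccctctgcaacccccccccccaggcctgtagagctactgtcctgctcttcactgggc
The Myog stretch held 2 E-boxes and 1 MEF3 motif, and the Chrng stretch 3 E-boxes, of which 2 read CAGCTG. RefSeq start sites matched 7 of the 10 genes, the others being Myod1, Myf6 and Mymk. Of these 7 promoters 4 held an E-box, against 66.2% of 32851 promoters of the same length, and 2 held 2 or more, against 31.8%. The form CAGCTG was in 1 of the 7 and in 13.0% of all promoters, and the MEF3 motif in 1 of the 7 and in 1.18% of all. These matches describe letters in the window and do not show binding.

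The values are log2 signals made with RMA, the method that corrects background, brings arrays to 1 distribution and summarises probes. A difference of 1 is a 2-fold change, and RMA compresses differences of dim genes. The labels were checked first on Kat2a, which measured 6.50, 6.46, 6.45 and 6.43 in wild types 1 to 4 and 5.81, 5.84, 5.79 and 5.73 in knockouts 1 to 4 (limma adjusted p = 0.0319). The knockout level was 0.631-fold of wild type (95% interval 0.561-fold to 0.709-fold), so Kat2a signal remained in the tissue. Markers of skeletal muscle, such as Ckm and Acta1, were bright in every array, with a list mean from 12.1 to 12.2. Array medians lay between 4.61 and 4.72. Wild type 2 stood apart from the rest at 32.2 on the first principal component, where the other arrays lay between -11.6 and 7.27.

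Over all 19938 genes, limma called 3 at an adjusted p under 0.05, or 0.0150%, with 1 higher and 2 lower. Of the 10 myogenic genes 0 were called, with limma adjusted p values from 0.876 to 0.998. At an unadjusted limma p under 0.05 there were 0 of the 10, against 5.73% of all genes. The groups overlapped for each of the 10, whereas they did not overlap for 3.62% of all genes. The median difference of the 10 genes was 0.02, against -0.01 over all genes, and 6 of them were higher and 4 lower in knockout. Their median size of difference, with the sign left out, was 0.06, against 0.08 over all genes. With 4 animals a group, the standard errors of these genes ran from 0.08 to 0.15 log2 units. Differences inside the interval of a gene were therefore not excluded for that gene. The smallest detectable difference was not computed. In a whole muscle sample, fewer cells of a type and less RNA per cell cannot be told apart, so every level given here is that of the tissue.

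**Figure D1:**
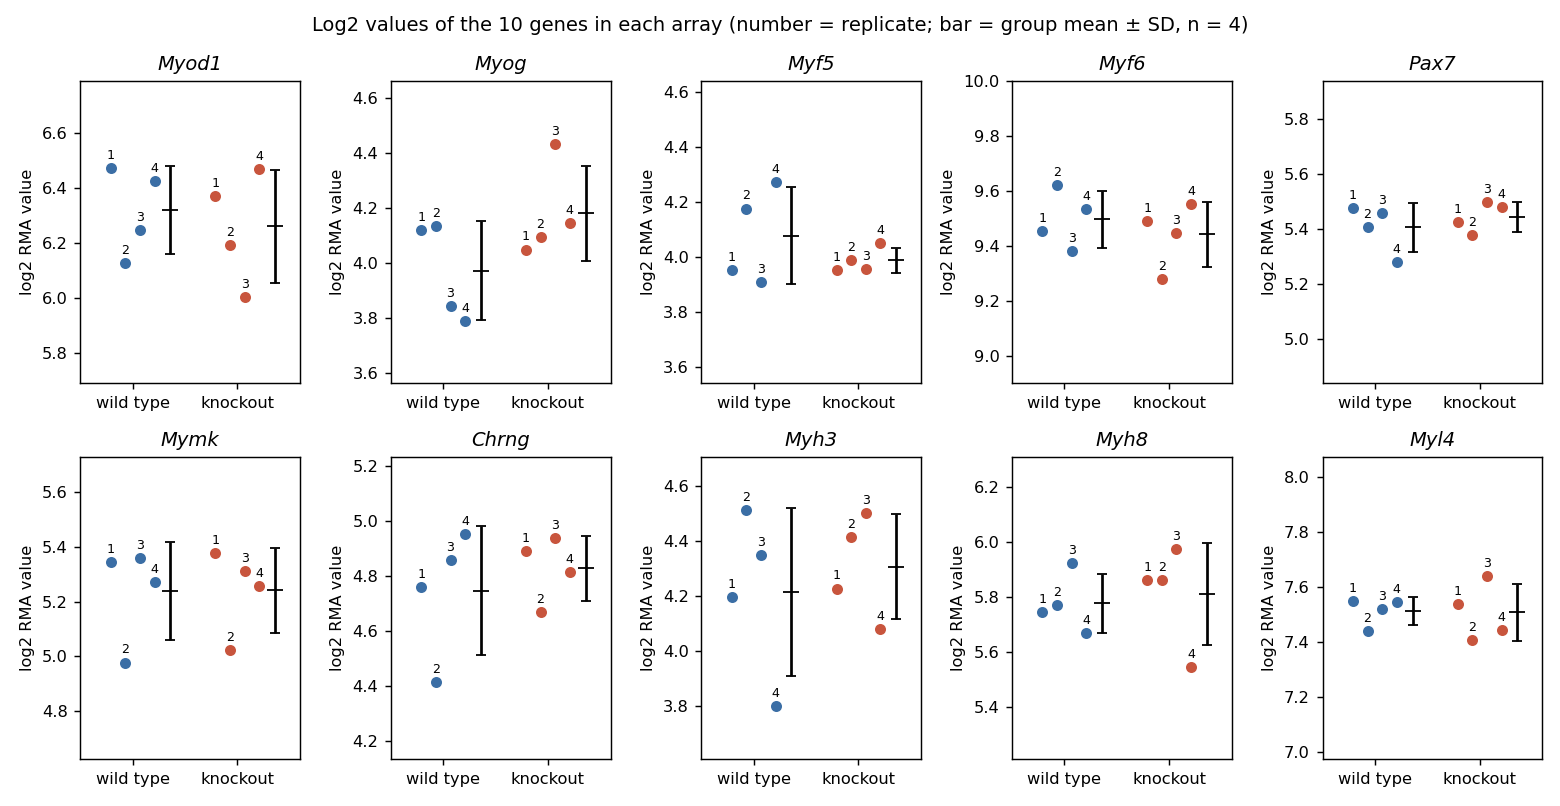
Log2 RMA value (vertical axis, a span of 1.1 log2 units in every panel) of each of the 10 genes in wild-type and knockout arrays. Points are animals numbered by replicate, and bars are the group mean ± SD (n = 4). The groups overlap in every panel. Knockout 3 is the highest Myog value at 4.43, and wild type 2 is the lowest Chrng value at 4.41.

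How far these genes stand above the background of the array limits what can be read from them. Of 20 genes listed as not expressed in muscle, such as insulin, protamine and casein genes, 17 were measured, and their means over the 8 arrays ranged from 2.14 to 5.10. Means of Myog (4.08), Myf5 (4.03), Chrng (4.79) and Myh3 (4.26) fell inside that range, so expression of these 4 genes was not separated from background here. The other 6, Mymk (5.24), Pax7 (5.42), Myh8 (5.79), Myod1 (6.29), Myl4 (7.51) and Myf6 (9.47), had means above it. Mymk and Pax7 were above it by little. Probes differ in how brightly they bind, so this range is a guide to background and does not rank the genes by amount of RNA.

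Among the bHLH regulators, Myod1 encodes MyoD, a factor that can turn other cells into muscle and that adult fast fibres still express. Myod1 measured 6.47, 6.13, 6.25 and 6.43 in wild types 1 to 4 and 6.37, 6.19, 6.00 and 6.47 in knockouts 1 to 4. Both groups held high and low animals, and the lowest and next to highest values were knockouts. The means were 6.32 ± 0.16 and 6.26 ± 0.21 (SD, n = 4 each), a difference of -0.06 (SE 0.12, 95% interval -0.32 to 0.20, limma adjusted p = 0.959). The slow-fibre list, 10 genes such as Myh7 and Tnni1, varied widely between animals and stood beside Myod1 as follows. It was lowest in knockout 4 (5.46), where Myod1 was 6.47, and highest in knockout 3 (8.46), where Myod1 was at its lowest, 6.00. In wild type the slow-fibre list was lowest in wild type 1 (6.15), where Myod1 was 6.47, and highest in wild type 2 (7.91), where it was 6.13. Wild types 3 and 4 did not keep to this order, with the slow-fibre list at 6.26 and 7.73 and Myod1 at 6.25 and 6.43. The part of fibre makeup in the Myod1 values was not tested.

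Myog encodes myogenin, which drives differentiation of committed myoblasts and is induced after denervation. It measured 4.12, 4.13, 3.84 and 3.79 in wild types 1 to 4 and 4.05, 4.09, 4.43 and 4.15 in knockouts 1 to 4. Wild types 3 and 4 were low and knockout 3 was high, and the remaining 5 arrays lay close together. The difference of 0.21 (SE 0.12, 95% interval -0.04 to 0.46, limma adjusted p = 0.876) was the widest of the 10 genes, and 10.4% of all genes had one at least as wide. It stayed above 0 when any 1 array was left out, between 0.12 without knockout 3 and 0.26 without wild type 2. The interval allows up to a 1.37-fold higher signal. That signal was within the background range, so the interval does not bound the level of Myog RNA.

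Myf5 encodes a bHLH factor of myogenic precursors. It measured 3.95, 4.18, 3.91 and 4.27 in wild types 1 to 4 and 3.95, 3.99, 3.96 and 4.05 in knockouts 1 to 4. All 4 knockout values lay within the wild-type range, and the SD was 0.18 in wild type and 0.05 in knockout. The difference was -0.09 (SE 0.10, 95% interval -0.30 to 0.12, limma adjusted p = 0.930). It was -0.02 without wild type 4, the highest array.

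Myf6 encodes Mrf4, the bHLH regulator that mature fibres express most. It measured 9.45, 9.62, 9.38 and 9.53 in wild types 1 to 4 and 9.49, 9.28, 9.45 and 9.55 in knockouts 1 to 4. The signal was far above background and steady, with an SD over the 8 arrays of 0.11, against a median of 0.15 over all genes. The difference was -0.05 (SE 0.09, limma adjusted p = 0.949), and its interval excluded levels below 0.837-fold and above 1.11-fold of wild type. Without knockout 2, the lowest array, the difference was -7e-05. Its interval was among the narrowest of the 10 genes.

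**Figure D2:**
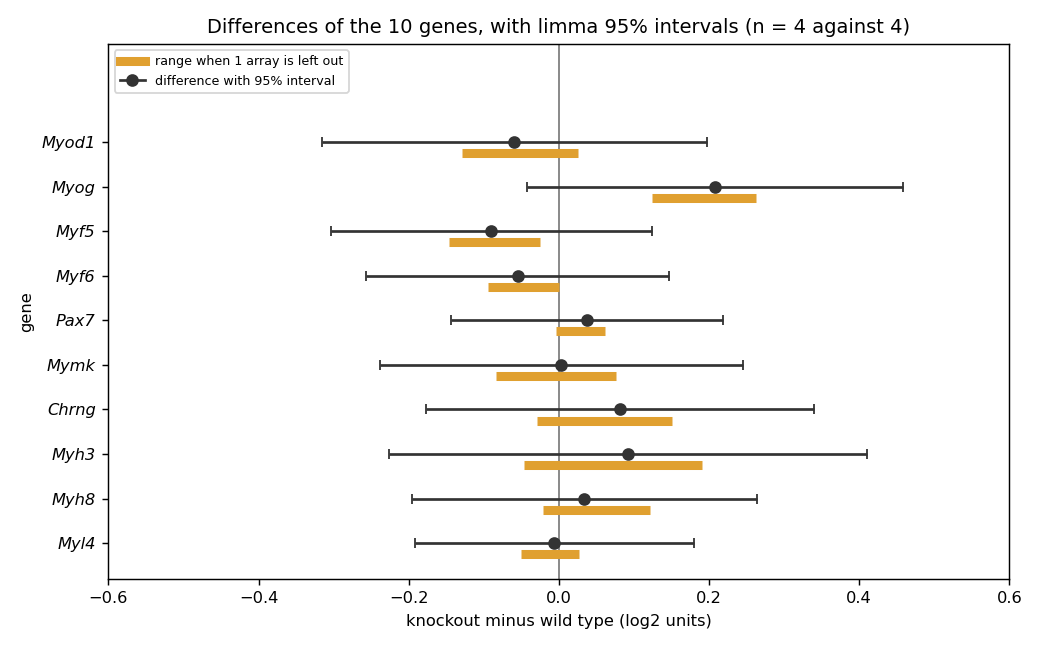
Difference of each gene, knockout minus wild type in log2 units (horizontal axis), with its limma 95% interval (black) and the range of the difference when 1 array is left out (orange). Every interval includes 0, from Pax7 at -0.14 to 0.22 to Myh3 at -0.23 to 0.41. The leave-one-out range does not cross 0 for Myog, Myf5 and Myf6.

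Pax7, the defining transcription factor of satellite cells, had the least spread of the 10 genes over the arrays. It measured 5.48, 5.41, 5.46 and 5.28 in wild types 1 to 4 and 5.42, 5.38, 5.50 and 5.48 in knockouts 1 to 4. The difference was 0.04 (SE 0.08, limma adjusted p = 0.966), with an interval from 0.905-fold to 1.16-fold. The mean of Pax7, 5.42, lay little above the background range, which reached 5.10. Wild type 4 was the lowest array, and without it the difference was -0.00418. Of 18 other genes of satellite cells and their Notch pathway, all measured, 0 passed the limma threshold; 6 were higher and 12 lower, with a median of -0.02. The members with the smallest p were Dll1, a Notch ligand, at -0.23 (limma adjusted p = 0.867), and Megf10, a receptor of satellite cells, at 0.28 (limma adjusted p = 0.869). Every knockout lay below every wild type for Dll1, as for 2.14% of all genes.

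The bHLH regulators bind DNA together with E proteins, which the Id proteins hold back. Of 17 such partners and inhibitors 0 passed the limma threshold; 6 were higher and 11 lower, with a median of -0.02. The E protein genes Tcf3, Tcf4 and Tcf12 are in this count, and their values in the 8 arrays ranged from 5.90 to 6.17, from 7.48 to 7.75 and from 7.44 to 7.73. Id3, an inhibitor, had means of 5.31 ± 0.21 (wild type) and 5.00 ± 0.19 (knockout; SD, n = 4 each; limma adjusted p = 0.859). Snai2, which encodes the repressor Slug that competes for E-boxes, measured 4.97 ± 0.27 and 5.23 ± 0.05 (limma adjusted p = 0.861). All 4 knockouts lay above all 4 wild types, as for 1.48% of all genes. Id3 alone of the 17 genes had an unadjusted limma p under 0.05, as did 5.73% of all genes.

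Mymk encodes myomaker, the membrane protein that myoblasts need in order to fuse. It measured 5.34, 4.98, 5.36 and 5.27 in wild types 1 to 4 and 5.38, 5.02, 5.31 and 5.25 in knockouts 1 to 4. The number 2 animal of each genotype was low and the remaining 6 lay close together. The difference was 0.00299 (SE 0.11, limma adjusted p = 0.998), with an interval from 0.847-fold to 1.18-fold. Its partner Mymx, which encodes myomixer, measured 6.21, 5.39, 6.26 and 5.79 in wild types 1 to 4 and 6.04, 5.90, 6.36 and 6.16 in knockouts 1 to 4 (limma adjusted p = 0.911). Wild type 2 was again the lowest array. Of the 16 other fusion genes, Mymx among them, 0 passed the limma threshold; 9 were higher and 7 lower, with a median of 0.02. Those with the smallest p were Nphs1, which encodes nephrin, at 0.23 and Bin3 at 0.22, each with a limma adjusted p of 0.869.

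Chrng encodes the gamma subunit of the fetal acetylcholine receptor, which the epsilon subunit Chrne replaces after birth at innervated endplates and which returns after denervation. Chrng measured 4.76, 4.41, 4.86 and 4.95 in wild types 1 to 4 and 4.89, 4.67, 4.94 and 4.81 in knockouts 1 to 4. Wild type 2 was the lowest and the knockouts lay within the wild-type range. The difference was 0.08 (SE 0.12, 95% interval -0.18 to 0.34, limma adjusted p = 0.939), and -0.03 without wild type 2. Chrne ranged from 6.81 to 7.25 in wild type and from 6.69 to 7.02 in knockout, a difference of -0.14 (limma adjusted p = 0.905). The remaining receptor subunits Chrna1, Chrnb1 and Chrnd had differences of 0.16, 0.09 and 0.13 (limma adjusted p = 0.876, 0.939 and 0.890).

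Wild type 2 was the lowest of the 8 arrays for Mymk, Chrng and Mymx, and also for 8 of the 17 genes not expressed in muscle, whose mean was 3.65 in that array and 3.75 to 3.83 in the other 7. It was the lowest array for 2 of the 10 genes, against 21.1% of all genes. For Myh3 (4.51) and Myf6 (9.62) it was the highest array, and for Myog (4.13) the highest wild type. The part of this array's background in the low values of Mymk, Chrng and Mymx was not tested. Without it the Mymk difference was -0.08 and the Chrng difference -0.03, and 0 of the 10 genes passed the limma threshold.

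**Figure D3:**
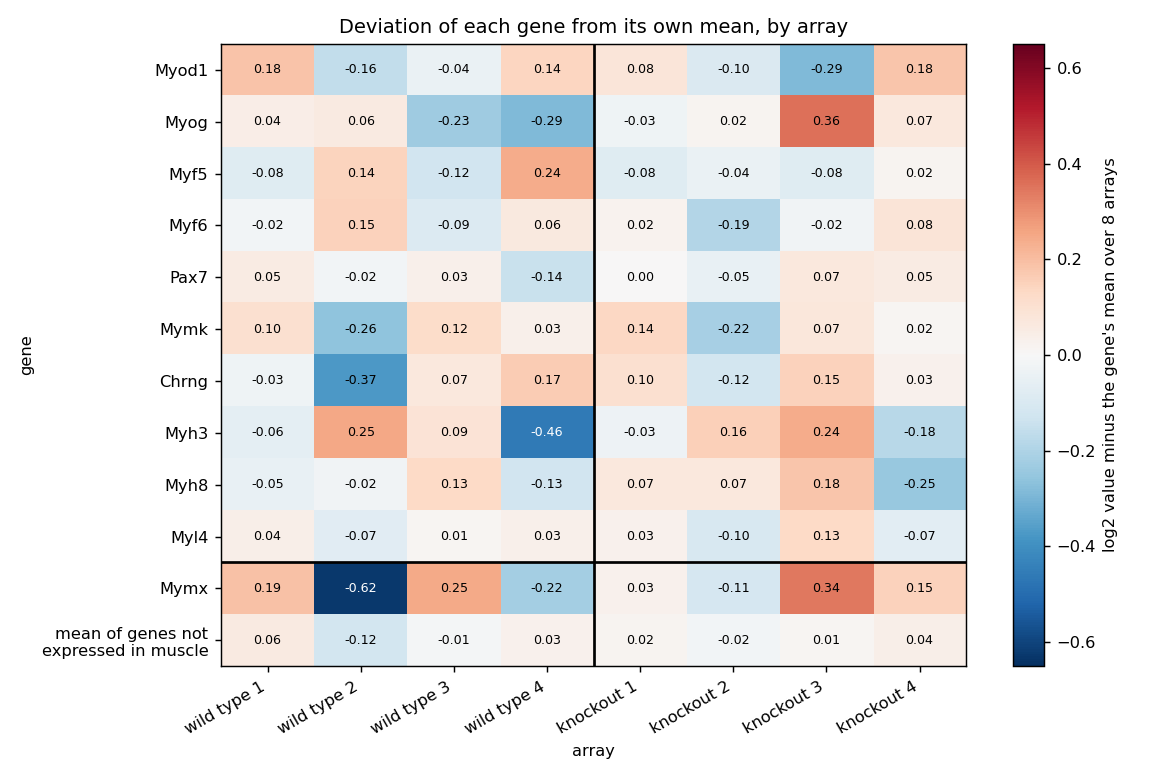
Deviation of each gene (rows) from its own mean over the 8 arrays, in log2 units, for each array (columns, wild types left of the line). The rows under the line are Mymx and the mean of the 17 genes not expressed in muscle. Wild type 2 is blue for Mymk, Chrng, Mymx and the background genes, and no row separates the 4 wild types from the 4 knockouts by colour.

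Chrng and Myog are both induced when muscle loses its nerve. Of 16 genes listed for the denervation response 15 were measured and 0 passed the limma threshold; 6 were higher and 9 lower, with a median of -0.04. Musk, the receptor kinase that gathers acetylcholine receptors, had means of 8.43 ± 0.42 (wild type) and 7.68 ± 0.33 (knockout; SD, n = 4 each; limma adjusted p = 0.538). Gadd45a, a stress gene that denervation induces, measured 5.99 ± 0.21 and 6.36 ± 0.34 (limma adjusted p = 0.861). Of the 15 genes only Musk and Gadd45a had an unadjusted limma p under 0.05, as did 5.73% of all genes.

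Myh3 encodes the embryonic myosin heavy chain, a usual marker of newly regenerating fibres. It measured 4.20, 4.51, 4.35 and 3.80 in wild types 1 to 4 and 4.23, 4.42, 4.50 and 4.08 in knockouts 1 to 4. It varied most of the 10 genes, with an SD over the 8 arrays of 0.24, just under the 90th percentile of all genes, 0.25. The number 4 animal of each genotype was the lowest. The difference was 0.09 (SE 0.15, 95% interval -0.23 to 0.41, limma adjusted p = 0.942). It was -0.05 without wild type 4 and 0.19 without wild type 2.

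Myh8 encodes the perinatal myosin heavy chain, which follows the embryonic one. It measured 5.75, 5.77, 5.92 and 5.67 in wild types 1 to 4 and 5.86, 5.86, 5.97 and 5.55 in knockouts 1 to 4. Knockout 3 was the highest array and knockout 4 the lowest, so the knockouts spanned the wild types. The difference was 0.03 (SE 0.11, limma adjusted p = 0.978), with an interval from 0.873-fold to 1.20-fold, and it was 0.12 without knockout 4 and -0.02 without knockout 3.

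Myl4 encodes the essential light chain of embryonic muscle and of the heart's atria. It measured 7.55, 7.44, 7.52 and 7.55 in wild types 1 to 4 and 7.54, 7.41, 7.64 and 7.44 in knockouts 1 to 4. The 8 values were close together, with the lowest and the highest both in knockouts. The difference was -0.00594 (SE 0.09, limma adjusted p = 0.994), and its interval ran from 0.876-fold to 1.13-fold of wild type.

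The adult isoforms that replace these embryonic proteins were also measured. Of 9 adult sarcomere genes 0 passed the limma threshold; 4 were higher and 5 lower, with a median of -0.03. Myh4, the heavy chain of the fastest fibres, measured 12.25 ± 0.05 in wild type and 12.25 ± 0.03 in knockout (SD, n = 4 each), a difference of 0.00408 (limma adjusted p = 0.995). Myl1, the fast counterpart of Myl4, differed by -0.05 (limma adjusted p = 0.949). Myh1 and Myh2, heavy chains of other fast fibres, differed by -0.25 and -0.49 (limma adjusted p = 0.917 and 0.912), with Myh2 lowest in knockout 4 at 9.03. The slow isoforms Myh7 and Myl3 spanned 5.21 to 9.24 and 4.94 to 9.29 over the 8 arrays, much wider than any embryonic counterpart, and differed by 0.50 and 0.05 between genotypes (limma adjusted p = 0.949 and 0.995). Mylpf, the fast regulatory light chain, differed by 0.10 (limma adjusted p = 0.926).

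Of 16 other genes of developing or regenerating muscle 14 were measured and 0 passed the limma threshold, with 7 higher, 7 lower and a median of 0.00700. Actc1, the cardiac actin that embryonic muscle makes, measured 7.55, 8.75, 9.01 and 8.33 in wild types 1 to 4 and 9.90, 9.35, 10.25 and 11.27 in knockouts 1 to 4. All 4 knockouts were above all 4 wild types, as for 1.48% of all genes, and its limma adjusted p was 0.258. Actc1 was the only 1 of the 14 genes whose groups did not overlap. In the array with the highest Actc1, knockout 4, Myh3 measured 4.08, Myh8 5.55 and Myl4 7.44, each below its own mean over the 8 arrays. In knockout 3, next in order for Actc1, Myh8 (5.97) and Myl4 (7.64) were the highest of the 8 arrays, and Myh3 (4.50) was above its mean. Xirp1, a repair protein of the fibre, had means of 8.64 ± 0.58 (wild type) and 8.07 ± 0.28 (knockout; limma adjusted p = 0.861). Of the 14 genes only Actc1 and Xirp1 had an unadjusted limma p under 0.05, as did 5.73% of all genes. A test of Actc1 against the embryonic genes was not made.

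**Figure D4:**
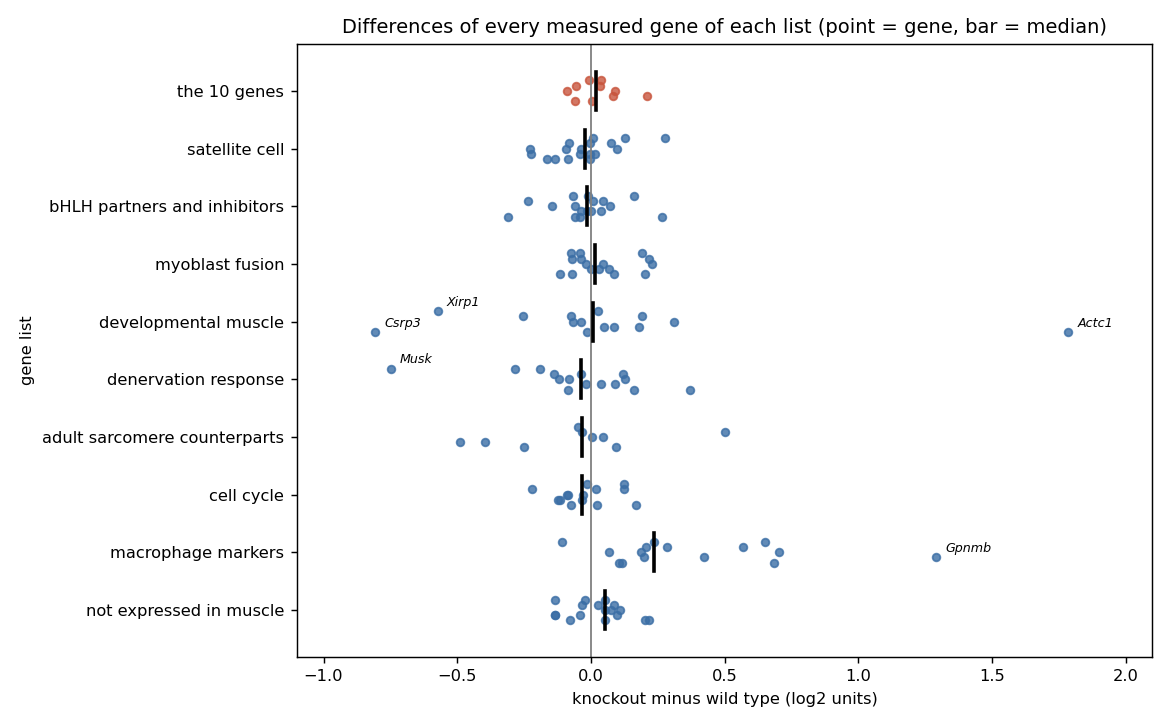
Difference of each measured gene, knockout minus wild type in log2 units (horizontal axis), by gene list; points are genes and black bars are list medians. The 10 genes (red) lie between -0.09 and 0.21 around a median of 0.02. Points far from the medians include Actc1 at 1.79, Csrp3, a stretch-responsive LIM gene, at -0.81, Musk at -0.75 and Gpnmb, a macrophage gene, at 1.29. Gpnmb was high in knockouts 3 and 4 (6.59 and 9.09) and not in knockouts 1 and 2 (5.52 and 5.32). Csrp3 was low in knockouts 1 and 4 (5.91 and 5.30) and not in knockouts 2 and 3 (7.60 and 7.70).

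Macrophages enter regenerating muscle, and their markers were measured in the same arrays. Of 15 macrophage markers 0 passed the limma threshold; 14 were higher and 1 lower, with a median of 0.24. For 4 of them every knockout lay above every wild type, as for 1.48% of all genes. An unadjusted limma p under 0.05 was found for 8, against 5.73% of all genes. The markers were chosen with earlier results of these data known, so these shares are not an independent test. The list mean ranged from 5.54 to 5.68 in wild type and from 5.72 to 6.39 in knockout, with the highest value in knockout 4. Those with the smallest p were Tyrobp, a signalling adaptor, at 0.65, and C1qb, a complement chain, at 0.42 (limma adjusted p = 0.611 and 0.733). Knockout 4 lay outside the range of the other knockouts for 5 of the 10 genes, against 54.1% of all genes. It was the highest knockout for Myod1 (6.47), Myf6 (9.55) and Myf5 (4.05), and the lowest for Myh3 (4.08) and Myh8 (5.55). The part of macrophage content in the values of the 10 genes was not tested.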

How the data were processed

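RNA of 8 gastrocnemius muscles was measured on Affymetrix arrays, 1 per animal. The authors deposited 1 table of log2 values produced, per the submitters' processing notes, by Affymetrix Expression Console with RMA; its settings and the build are not given in the sources used here. Of 35556 transcript clusters, 21789 had 1 gene symbol, and the cluster with the highest mean over the arrays stood for a gene, which left 19938 genes. Each of the 10 genes had 1 cluster, and none shared one with another gene. The genotypes were compared in R 4.3.3 by limma 3.58.1 (lmFit, then eBayes). P-values were adjusted by Benjamini-Hochberg across the 19938 genes, with a threshold of 0.05, no filter on dim genes and 12.3 total degrees of freedom. The steps were tested on simulated data. Members and lists were chosen with earlier results of these data known. Named were the 10 genes, Kat2a, fixed adult or partner genes and, from each list, the members past the threshold or the 2 with the smallest p. Genes with a pattern like that of a member were to be named for members with an SD over the arrays above the 90th percentile of all genes; 0 qualified. Tcf3, Tcf4, Tcf12, Csrp3 and Gpnmb were named after their values were seen. Alternatives were other normalizations, filters, priors and weights, the replicate block and leaving out arrays. The number of arrays limits the precision. Plots used Python 3.11.15 and matplotlib 3.10.9.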

Additional observations from a re-analysis of the deposited data

Results flagged for a closer look

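Among 96 groups of 4 arrays, 2 for each of 48 named genes, 3 held an array far from the other 3, where chance gives about 1 in 20. Chrnb1, the beta subunit of the acetylcholine receptor, measured 7.27 in wild type 2 and 6.89 to 6.94 in the other wild types. Chrnd, the delta subunit, measured 4.72 in knockout 4 and 4.88 to 4.90 in the other knockouts. Dll1, the Notch ligand, measured 4.69 in knockout 2 and 4.83 in each of the other knockouts. None of the 10 myogenic and embryonic fibre genes held such an array.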

How the results depend on the processing

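Under 18 alternatives 0 of 176 values of the 10 genes passed the limma threshold (lowest adjusted p 0.673), and 1 had an unadjusted p under 0.05, Myog at 0.0476 without wild type 2. The count of all genes called was 3, and 11 or 13 without the dimmest 25% or 50% of genes (fewer genes tested), 17 with an intensity trend and robust prior, 1 without wild type 2 and knockout 4 together and 0 with the replicate block, where 1286 genes had an unadjusted p under 0.05. Leaving out 1 array gave 0 to 5, with 0 without wild type 3, wild type 4 or any 1 knockout. The cause of these changes in the count was not tested. After quantile normalization or cyclic loess 1 gene was higher and 1 lower. Leaving out the dimmest 50% removed Myog, Myf5, Chrng and Myh3. Signs turned in 22 of the 176 values, over 7 of the 10 genes. Mymk was -0.00377 after quantile normalization, -0.0125 after median centring, -0.00128 after cyclic loess, -0.0645 with array weights and -0.0883 without wild type 2 and knockout 4 together. Chrng was -0.0248 in that last setting, and Myl4 was 0.0361 after quantile normalization and 0.0302 after cyclic loess. Leaving out 1 array gave -0.13 to 0.0258 for Myod1, -0.00418 to 0.0616 for Pax7, -0.0838 to 0.0760 for Mymk, -0.0293 to 0.15 for Chrng, -0.0461 to 0.19 for Myh3, -0.0215 to 0.12 for Myh8 and -0.0502 to 0.0271 for Myl4. Myog, Myf5 and Myf6 kept their sign throughout. Same-numbered animals deviated together with correlations from -0.10 to 0.22, and 4 of 8 arrays correlated best with their own number. Whether same-numbered animals share more than a number cannot be told from these values. The block left 0 of the 10 genes past the threshold. Dim signal limits Myog, Myf5, Chrng and Myh3, and Mymk and Pax7 lay little above background.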

Other observations

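Genes of dividing cells and of other cell types were measured beside the myogenic genes, and 0 members of these lists passed the limma threshold. Ncmap, Mag and Pi16 had an unadjusted limma p under 0.05, as did 5.73% of all genes. They were 2 of 7 Schwann cell genes and 1 of 9 genes of fibro-adipogenic progenitors, with 0 among the cell-cycle and endothelial genes. Of 14 measured cell-cycle genes 5 were higher and 9 lower in knockout (median -0.03), with Cdk1, a mitotic kinase, at -0.22 and Birc5, which encodes survivin, at 0.17. Of 7 Schwann cell genes 1 was higher and 6 were lower (median -0.24). Ncmap and Mag, both of myelin, differed by -0.57 and -0.25 (limma adjusted p = 0.802 and 0.861). Of 9 genes of fibro-adipogenic progenitors 5 were higher and 4 lower (median 0.02), with Pi16 at -0.29 (limma adjusted p = 0.861) and Mfap5 at -0.24. Of 10 endothelial genes 3 were higher and 7 lower (median -0.04), with Tek, the angiopoietin receptor, at -0.16 and Emcn, which encodes endomucin, at -0.24.

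Slow-fibre genes had a wide spread within each genotype. Of 10 slow-fibre genes 8 were higher and 2 lower in knockout, with a list mean from 6.15 to 7.91 in wild type and from 5.46 to 8.46 in knockout; Tnnc1 differed by 0.80 and Tnnt1 by 0.54, with standard errors of 0.74 and 0.61. Of 12 skeletal muscle markers 8 were higher and 4 lower (median 0.02), with Tnnc2 at 0.11. Of the 17 genes not expressed in muscle 10 were higher and 7 lower (median 0.05), with Cyp11b1 at 0.22 and Tg at -0.14.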
